A study of Rattus norvegicus with 21 samples.

Results

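Cabp7, Unc5c, Cntn3, Casr, Ndst4, Syt12 and Tenm4 were the 7 genes with the steepest falls in rat islets after partial pancreatectomy, out of 28914 gene rows in the count table and 13136 genes with enough reads to be tested. They were chosen on the measured values: they hold ranks 1 to 7 of the log2 fold change among the called falls with a mean of at least 10 CPM (the counts of a gene scaled to the size of its library). The fold changes of the 7 between the groups are therefore a description and carry no test. The PX group was 11 Lewis rats examined 4 weeks after surgical removal of 90% of the pancreas, and the sham group was 10 Lewis rats examined 4 weeks after a sham operation. Both groups share the strain and the 4-5 week description of the labels, which does not say whether that is an age or a time after surgery. Islets of Langerhans were isolated and their polyadenylated RNA was sequenced with a directional kit, 1 library for each numbered animal, and the design text states the purpose as the effect of raised glucose on islets. Each title carries an average blood glucose before sacrifice (BG), with no unit.

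The 7 genes share no single pathway, and most of them are best known from nerve cells. Unc5c is a receptor for netrin, the secreted cue that steers growing axons, and mediates repulsion. Cntn3 is a contactin, an immunoglobulin-type adhesion protein held to the membrane by a lipid anchor, and Tenm4 is a teneurin, a large membrane protein that binds latrophilin receptors on the facing cell. Ndst4 is one of the enzymes that remove acetyl groups from heparan sulfate chains and add sulfate in their place, a step that decides which secreted factors the chains hold. Casr is the receptor through which parathyroid and other endocrine cells sense calcium outside the cell. Cabp7, also called calneuron 2, is a calcium-binding protein of the Golgi, and Syt12 is a synaptotagmin of secretory vesicles that lacks the usual calcium-binding residues. Islet endocrine cells share much of the secretory and adhesion machinery of neurons.

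Promoters are shown for 3 genes because their letters differ widely although the 3 fell by similar amounts; RefSeq held the promoter of 5 of the 7 genes (build GRCr8, 250 bases before to 50 after the start, 300 in all). Capitals mark a match to a searched motif. The Cabp7 promoter (chromosome 14, 83832618 to 83832917, minus strand) was 77.3% G or C, against a median of 52.3% over 27457 rat promoters. It held the GC box GGGCGG 4 times in a stretch that begins 106 bases before the start. The Cntn3 promoter (chromosome 4, 136681862 to 136682161, minus strand) was 30.7% G or C, had no CG pair, and held 1 CCAAT. The Tenm4 promoter (chromosome 1, 159973767 to 159974066, plus strand) was 68.7% G or C and held GTTGCC, a part of the site of RFX factors, 31 bases before the start.
Cabp7: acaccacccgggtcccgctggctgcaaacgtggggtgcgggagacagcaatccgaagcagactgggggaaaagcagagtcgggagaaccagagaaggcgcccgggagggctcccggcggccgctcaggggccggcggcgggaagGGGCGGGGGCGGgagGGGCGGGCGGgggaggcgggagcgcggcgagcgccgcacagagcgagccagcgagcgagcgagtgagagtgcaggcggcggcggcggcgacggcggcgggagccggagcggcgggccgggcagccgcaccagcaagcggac
Cntn3: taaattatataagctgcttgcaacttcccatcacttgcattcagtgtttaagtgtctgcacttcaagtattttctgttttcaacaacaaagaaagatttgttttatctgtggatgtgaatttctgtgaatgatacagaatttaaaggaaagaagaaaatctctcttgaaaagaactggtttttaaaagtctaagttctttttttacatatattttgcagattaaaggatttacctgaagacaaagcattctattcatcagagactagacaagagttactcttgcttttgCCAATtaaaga
Tenm4: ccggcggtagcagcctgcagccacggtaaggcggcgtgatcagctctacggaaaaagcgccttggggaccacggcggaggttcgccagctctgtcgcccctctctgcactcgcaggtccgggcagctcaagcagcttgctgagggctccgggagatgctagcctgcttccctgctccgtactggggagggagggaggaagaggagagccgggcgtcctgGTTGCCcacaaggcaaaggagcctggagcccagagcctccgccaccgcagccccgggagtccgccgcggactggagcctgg

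The motifs were searched on both strands. GGGCGG stood in 34.9% of all promoters of this length, CCAAT in 37.7% and GTTGCC in 12.2%. The promoter of Ndst4 held CAGCTG, present in 15.1% of all promoters, and CCAAT on both strands, and that of Casr held none of the motifs. None of the 5 held the E-box CAGATG, found in 16.3% of all promoters. None held the cAMP response element TGACGTCA, found in 1.91%, or its core TGACG, found in 6030 of the 27457. The TATA box TATAAA, found in 14.3%, was also in none. The neuronal repressor REST binds a long element, searched here by its ends: TTCAGCAC was found in 1.05% of all promoters and none of the 5. The other end, GGACAGC, was found in 6.64% and likewise in none of the 5. A match is only a run of letters, and a missing match says only that these letters are not in this window. TGACGTCA includes TGACG, so those searches overlap.

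Sequencing depth ranged between 4001908 and 13187959 counts per library over both groups. The islet hormone genes were abundant in both groups: Ins1 averaged 77558 ± 30007 CPM in PX islets and 84494 ± 24385 CPM in sham islets (SD, n = 11 and 10), and Chga 561.6 ± 103.7 CPM in PX and 563.9 ± 129.1 CPM in sham. Other cells were present too. All 14 measured macrophage markers rose in PX, and their sum took 0.0213 to 0.158% of the counts in PX libraries and 0.00500 to 0.0166% in sham libraries. Acinar markers took 6.28 to 49.8% in PX and 0.641 to 23.8% in sham, and 6 of the 25 rose. PX 44 had the lowest macrophage score of the PX libraries (2.99, as mean log2 CPM over the markers) and sham 46 the highest of the sham libraries (2.80), so both lie between the groups. They also stood apart in the 7 genes, and results that rest on them are given with and without them, except for the genes most like the 7. The share of mitochondrial transcripts moved with them too: it was 1.39 to 5.58% in PX libraries and 1.42 to 6.24% in sham libraries, highest of the PX libraries in PX 44, lowest of them in PX 65, and lowest of the sham libraries in sham 46, where the other 9 began at 3.23%. PX 37, high in Unc5c and Tenm4, had 1.64%. The part of this measure in the levels of the 7 genes was not tested. Across all genes, 1961 of 13136 rose (14.9%) and 2127 fell (16.2%) in PX at an adjusted p under 0.05 by edgeR's quasi-likelihood test, and all 7 genes lie among the falls by the way they were chosen. With libraries scaled by their totals alone, 990 rose and 2227 fell.

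Every one of the 7 genes was lower in most PX libraries than in most sham libraries, and no gene separated the groups completely. Without sham 46, every PX library lay below every sham library for Cabp7, Syt12 and Tenm4. Without sham 46 and PX 44, that held for 6 of the 7, and Unc5c was the exception through PX 37. Of all 13136 genes, 0.145% had every PX library below every sham library, 0.746% without sham 46 and 2.34% without both. Since the 7 were chosen on this contrast, nothing is read from those counts. In these bulk samples, fewer cells of a type and less RNA per cell cannot be told apart.

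**Figure D1:**
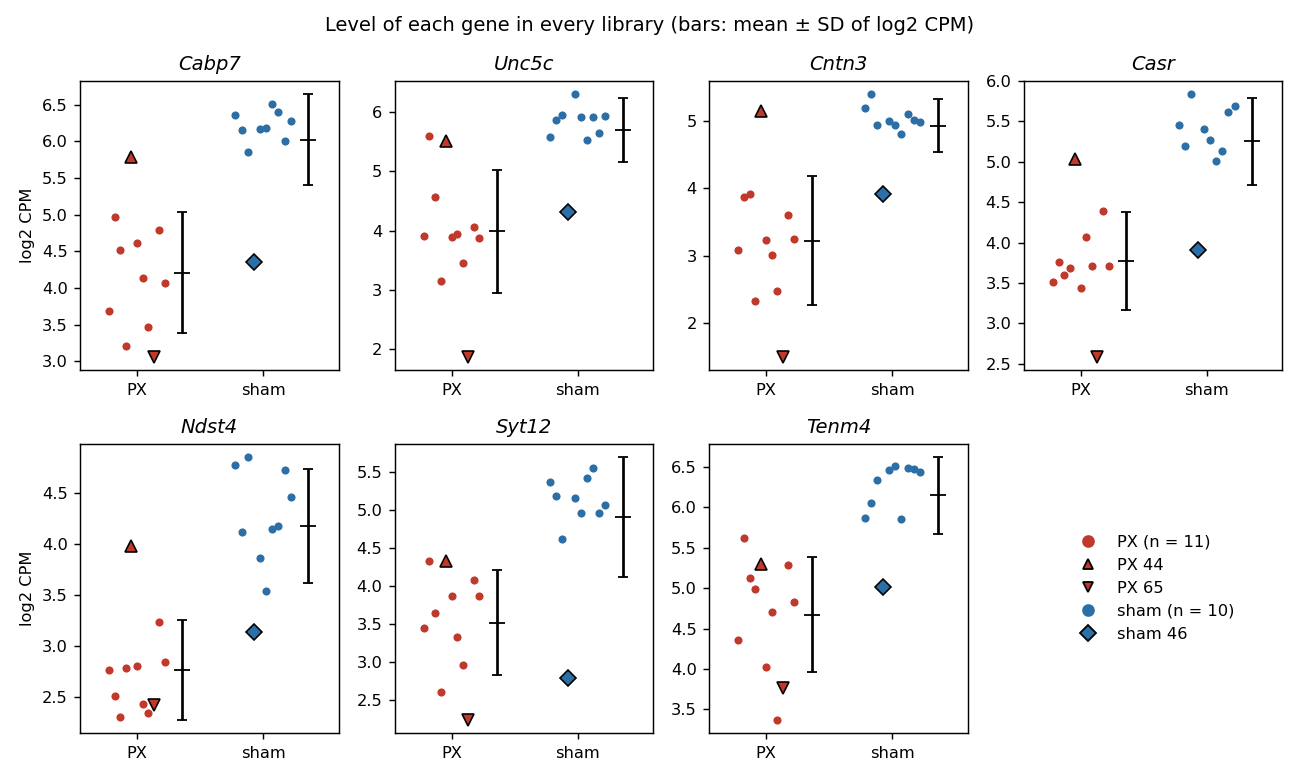
Level of each of the 7 genes in every library, as log2 CPM, PX (n = 11) left of sham (n = 10), with the mean and SD of each group beside the points. PX 44 lies at or near the top of the PX points in each gene, PX 65 at or near the bottom, and sham 46 is the lowest sham point in all 7.

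Unc5c, the netrin receptor (chromosome 2, 247248407 to 247397483 in the deposited table, whose build is not given in the sources used here), had a lowest, median and highest level of 3.39, 14.9 and 48.3 CPM in PX islets, against 19.6, 59.0 and 78.5 CPM in sham islets. PX 37, PX 44 and PX 38, at 48.3, 45.2 and 23.4 CPM, lay within the sham range. PX 44 and PX 38 were above sham 46 alone, and PX 37 was also above the next sham library, at 45.7 CPM. The means were 19.6 ± 14.3 CPM in PX and 54.2 ± 15.3 CPM in sham (SD), a log2 fold change of -1.46 ± 0.32 (SE). It had the widest spread of the 7 within PX, an SD of 1.04 log2 units.

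Of the 14 other tested genes of netrin and Slit guidance, 3 rose and 5 fell, against 14.9% and 16.2% of all genes. Changes of family genes are given as log2 fold changes of PX over sham ± SE, with adjusted p over all genes from edgeR's quasi-likelihood test and CPM as mean ± SD. Dscam, an immunoglobulin receptor that also binds netrin, averaged 3.06 ± 1.70 CPM in PX and 10.7 ± 2.81 CPM in sham (log2 fold change -1.78 ± 0.26, adjusted p = 1.79e-05). Slit1, a secreted repellent, fell by 0.64 ± 0.19 (adjusted p = 0.0126), and Robo1, a receptor for Slit proteins, fell by 0.60 ± 0.20 (adjusted p = 0.0272). The other Slit ligands moved the other way: Slit3 averaged 22.6 ± 14.5 CPM in PX and 5.34 ± 2.66 CPM in sham (2.09 ± 0.34, adjusted p = 8.74e-05), and Slit2 rose by 1.46 ± 0.22 (adjusted p = 2.89e-05). Unc5d, a receptor of the same family as Unc5c, rose by 1.20 ± 0.34 (adjusted p = 0.00971) at low levels, 4.40 ± 2.38 CPM in PX and 1.89 ± 1.13 CPM in sham.

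Cntn3, the contactin (chromosome 4, 134784668 to 135069970 in the deposited table), had a lowest, median and highest level of 2.54, 9.13 and 35.3 CPM in PX islets, against 14.9, 31.6 and 42.0 CPM in sham islets. PX 44 alone was inside the sham range, and the next highest PX library reached 14.9 CPM, just under sham 46. The means were 11.2 ± 8.85 CPM in PX and 31.1 ± 6.92 CPM in sham, a log2 fold change of -1.45 ± 0.30. The sham libraries other than sham 46 were the tightest of any of the 7 genes, with an SD of 0.17 log2 units.

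None of the 11 other tested contactins, contactin partners and L1 or NCAM adhesion genes rose, and 4 fell, against 14.9% and 16.2% of all genes. Cntnap4, a contactin-associated protein of synapses, averaged 6.18 ± 1.78 CPM in PX and 12.5 ± 4.26 CPM in sham, a fitted level in PX of 0.498 times that in sham (adjusted p = 2.76e-04). Ncam1, which islet endocrine cells carry on their surface, averaged 73.5 ± 12.7 CPM in PX and 118.6 ± 29.1 CPM in sham (-0.69 ± 0.13, adjusted p = 4.01e-04). Nrcam, an L1-type adhesion protein, fell by 0.52 ± 0.14 (adjusted p = 0.00559).

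Tenm4, the teneurin (chromosome 1, 161401527 to 161880923 in the deposited table), had a lowest, median and highest level of 10.1, 28.3 and 48.9 CPM in PX islets, against 32.1, 83.6 and 90.8 CPM in sham islets. Without sham 46 the lowest sham library was at 57.5 CPM, above all PX libraries. The means were 27.9 ± 12.2 CPM in PX and 73.8 ± 19.6 CPM in sham, a log2 fold change of -1.40 ± 0.23.

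All 8 other tested genes of teneurins and their partners changed, 5 down and 3 up, against 16.2% and 14.9% of all genes. Tenm2 fell by 1.33 ± 0.22 (adjusted p = 9.48e-05), with 5.88 ± 2.27 CPM in PX and 14.8 ± 4.36 CPM in sham. Adgrl1, a latrophilin, fell by 0.66 ± 0.19 (adjusted p = 0.00903), with 51.9 ± 19.6 CPM in PX and 81.9 ± 17.6 CPM in sham. The FLRT proteins, membrane ligands of latrophilins, split: Flrt1 fell by 1.49 ± 0.29 (adjusted p = 3.76e-04), while Flrt3 averaged 5.07 ± 2.63 CPM in PX and 0.549 ± 0.237 CPM in sham (3.19 ± 0.32, adjusted p = 3.70e-07) and Flrt2 rose by 1.12 ± 0.22 (adjusted p = 5.65e-04). Adgrl2, the remaining riser, rose by 0.49 ± 0.13 (adjusted p = 0.00698).

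Ndst4, the heparan sulfate enzyme (chromosome 2, 229196616 to 229496516 in the deposited table), was the least abundant of the 7 in CPM, with a lowest, median and highest level of 4.67, 6.51 and 15.5 CPM in PX islets, against 8.53, 17.6 and 28.6 CPM in sham islets. PX 44 and PX 66 were above sham 46, and PX 44 alone was above the next sham library, at 11.3 CPM. The means were 6.95 ± 3.12 CPM in PX and 18.99 ± 6.80 CPM in sham, a log2 fold change of -1.43 ± 0.23. It rested on 24 to 179 counts in PX libraries and 64 to 282 in sham libraries.

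Among the 14 other tested heparan sulfate genes, 3 rose and 1 fell, against 14.9% and 16.2% of all genes. The risers were Sulf1 (1.40 ± 0.21, adjusted p = 3.45e-05) and Sulf2 (1.01 ± 0.22, adjusted p = 0.00142), which take sulfate off finished chains outside the cell, and Hs3st1 (1.17 ± 0.29, adjusted p = 0.00413), which adds sulfate at another position. Sulf1 averaged 26.9 ± 10.4 CPM in PX and 10.2 ± 3.71 CPM in sham. Ext2, a chain-building enzyme, fell by 0.25 ± 0.08 (adjusted p = 0.0189).

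Casr, the calcium-sensing receptor (chromosome 11, 67188630 to 67258771 in the deposited table), had a lowest, median and highest level of 5.72, 12.8 and 32.6 CPM in PX islets, against 14.8, 40.1 and 56.9 CPM in sham islets. Of the PX libraries, 9 lay between 10.6 and 20.7 CPM, with PX 65 below and PX 44 above them. The means were 14.6 ± 7.0 CPM in PX and 39.9 ± 11.8 CPM in sham, a log2 fold change of -1.43 ± 0.23.

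Of 15 other tested genes of Casr signalling, 5 rose and 4 fell, against 14.9% and 16.2% of all genes. Plcb2, a phospholipase best known from blood cells, averaged 3.45 ± 2.40 CPM in PX and 0.822 ± 0.576 CPM in sham (1.999 ± 0.40, adjusted p = 6.09e-04), and Arrb1, an arrestin that switches receptors off, rose by 1.32 ± 0.25 (adjusted p = 3.94e-04). Ap2s1, an adaptor subunit through which Casr is taken into the cell, rose by 0.65 ± 0.22 (adjusted p = 0.0250). On the macrophage score with the group as a term, 3 of the 15 rose, Plcb2, Arrb1 and Ap2s1, and 2 fell. Over all genes 11% rose and 9.68% fell on that score. Which cells carry these changes was not tested. Of the channels that release stored calcium, Itpr1 averaged 168.0 ± 21.8 CPM in PX and 245.5 ± 52.9 CPM in sham (-0.55 ± 0.11, adjusted p = 5.84e-04), Itpr2 fell by 0.66 ± 0.17 (adjusted p = 0.00594), and Itpr3 stood at 103.0 ± 35.2 CPM in PX and 93.3 ± 39.9 CPM in sham (0.14 ± 0.22, adjusted p = 0.643). Gnaq, the G protein that couples Casr to phospholipase C, fell by 0.28 ± 0.10 (adjusted p = 0.0321).

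Cabp7, the Golgi calcium sensor (chromosome 14, 84968130 to 84978255 in the deposited table), fell the most, with a lowest, median and highest level of 8.05, 17.2 and 54.8 CPM in PX islets, against 20.1, 71.9 and 90.6 CPM in sham islets. Apart from PX 44, no PX library passed 30.9 CPM, and apart from sham 46, no sham library was under 57.4 CPM. The means were 21.3 ± 13.5 CPM in PX and 69.0 ± 19.7 CPM in sham, a log2 fold change of -1.69 ± 0.29. None of the 10 other tested calcium sensors rose and 2 fell, against 14.9% and 16.2% of all genes. Kcnip1, which binds potassium channels, fell by 0.97 ± 0.21 (adjusted p = 0.00138) and Vsnl1, a visinin-like sensor, by 0.50 ± 0.17 (adjusted p = 0.0312).

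Syt12, the vesicle synaptotagmin (chromosome 1, 219688451 to 219719272 in the deposited table), had a lowest, median and highest level of 4.45, 12.2 and 19.8 CPM in PX islets, against 6.67, 34.3 and 46.7 CPM in sham islets. Sham 46 lay below 9 of the 11 PX libraries, and the other sham libraries began at 24.4 CPM, above all PX libraries. The means were 12.3 ± 5.26 CPM in PX and 32.8 ± 11.3 CPM in sham, a log2 fold change of -1.41 ± 0.27. Of the 11 other tested synaptotagmins, 2 rose and 4 fell, against 14.9% and 16.2% of all genes. Syt1, a calcium sensor of fast release, averaged 5.53 ± 1.89 CPM in PX and 13.1 ± 4.21 CPM in sham (-1.23 ± 0.21, adjusted p = 1.06e-04), Syt17 fell by 0.72 ± 0.19 (adjusted p = 0.00514) and Syt14 by 0.71 ± 0.15 (adjusted p = 7.11e-04). Syt4 rose by 0.42 ± 0.14 (adjusted p = 0.0287) and Syt5 by 0.46 ± 0.14 (adjusted p = 0.0178).

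**Figure D2:**
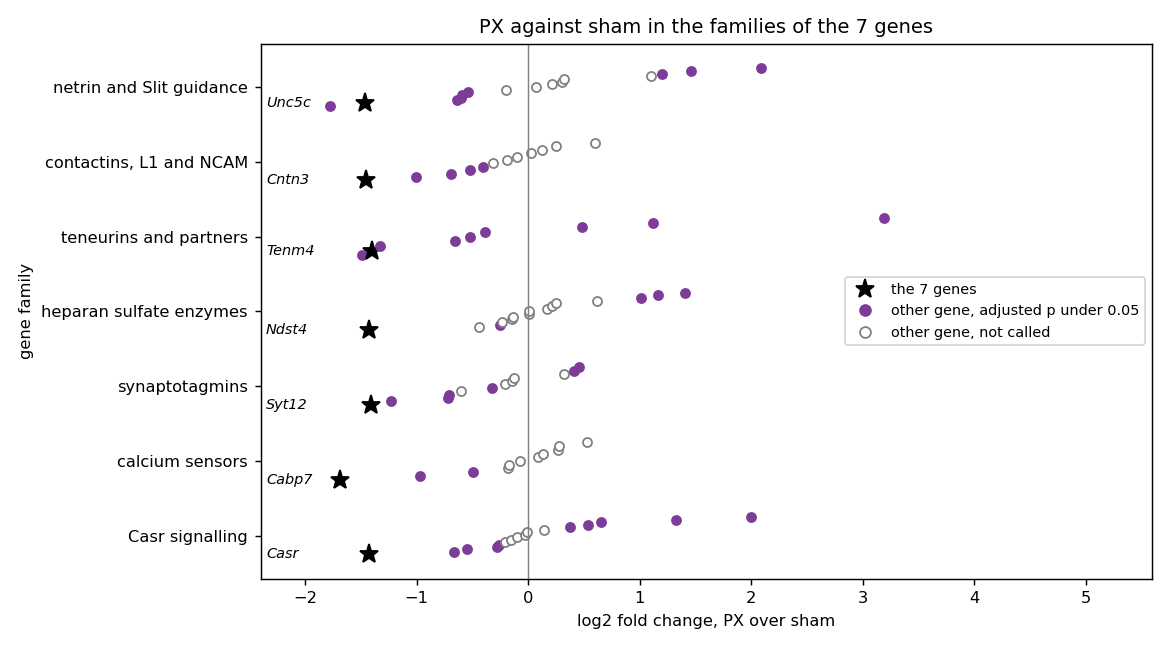
Log2 fold change, PX over sham, of the 7 genes (stars) and of the 83 other tested genes of their families (filled where the adjusted p is under 0.05). Of the 83, 25 fell, 16 rose and 42 were not called, against 16.2% of all genes falling and 14.9% rising. Cabp7, Cntn3, Ndst4, Syt12 and Casr each lie left of all other genes of their family, while Dscam lies left of Unc5c and Flrt1 left of Tenm4.

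Over the 83 other family genes the median log2 fold change was -0.10, against -0.04 over all 13136 tested genes. On the macrophage score with the group as a term, 11 of the 83 rose and 10 fell, against 11% and 9.68% of all genes, with Slit3 and Sulf1 among the risers and Slit1 and Nrcam among the falls. The 7 stood next to other steep falls in the ranking: just outside came Dnah2, an axonemal dynein chain, at -1.38, Nnat, neuronatin, at -1.38 and the RNA family entry RF00189 at -1.37, while the last gene inside, Tenm4, stood at -1.40. Without the floor of 10 CPM, 24 called genes had lower values than Tenm4, the rest of the 7 among them. In the authors' deposited table of the same comparison the log2 fold changes of the 7 ran between -1.79 for Cabp7 and -1.38 for Syt12. Without PX 44 and sham 46 the values were -1.998 for Cabp7, -1.85 for Cntn3, -1.72 for Unc5c, -1.66 for Casr and Ndst4, -1.58 for Syt12 and -1.49 for Tenm4.

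Per kilobase of gene length, Cabp7 was the most abundant of the 7 in both groups, at 7.78 ± 4.93 CPM per kb in PX and 25.2 ± 7.21 CPM per kb in sham. The other genes lay between 2.09 and 3.47 CPM per kb in PX and between 5.80 and 9.26 CPM per kb in sham, with Unc5c lowest and Syt12 highest in both groups. Neighbours in that order, such as Tenm4 at 8.64 ± 2.30 and Casr at 7.99 ± 2.36 CPM per kb in sham, lay within each other's SD. Chga, a general endocrine marker, stood at 298.4 CPM per kb in PX and 299.6 in sham.

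Markers of nerve cells were low. The neuronal transcription factor Phox2a had 0 counts in all 11 PX libraries and 10 counts over all sham libraries. Of the 8 peripheral neuron markers only Prph and Dbh passed the count filter, and neither was called by edgeR. Their score was 0.28 ± 1.57 in PX and 2.03 ± 1.47 in sham (permutation test with 100000 resamples over 11 marker lists, adjusted p = 0.0259), with the highest value of all libraries, 4.25, in PX 58. Within groups its r with the 7 genes over 21 libraries was 0.05 to 0.34. In the 10 sham libraries alone it was 0.39 (Ndst4) to 0.83 (Tenm4), and in the 11 PX libraries alone -0.21 to 0.05. Without PX 44 and sham 46 it was -0.08 to 0.32 within groups. The part of this score in the levels of the 7 genes was not tested. The 8 markers together took 6.07e-05 to 0.00410% of the counts in PX and 7.99e-05 to 0.00250% in sham. Among 8 Schwann cell markers, 4 passed the filter and 1 rose, and their score was 2.89 ± 0.27 in PX and 2.53 ± 0.16 in sham (same permutation test, adjusted p = 0.00367). The general endocrine score, the mean log2 CPM of 13 secretory and transcription factor markers, was 8.60 ± 0.24 in PX and 8.74 ± 0.20 in sham (same permutation test, adjusted p = 0.191). The delta cell score was 4.30 ± 0.34 in PX and 5.15 ± 0.42 in sham (same permutation test, adjusted p = 3.3e-04). The alpha cell score was 6.07 ± 0.38 in PX and 6.57 ± 0.54 in sham, and the beta cell score 10.07 ± 0.29 in PX and 10.32 ± 0.18 in sham (same permutation test, adjusted p = 0.0305 for each). Sst, the delta cell hormone, averaged 430.1 ± 118.8 CPM in PX and 992.3 ± 259.0 CPM in sham.

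Within groups the 7 genes varied together. With each group's mean taken off, the 21 pairs of genes had a median Pearson r of 0.73 (0.41 to 0.93) over 21 libraries, which share their depth and scaling factors. The values were lower without PX 44 and sham 46, with a median of 0.52 (-0.05 to 0.93) over 19 libraries. Cabp7, Syt12, Cntn3 and Unc5c then kept values from 0.77 to 0.93 among themselves, Casr and Ndst4 stood at 0.48 with each other, and Ndst4 had between -0.05 and 0.14 with the other 5. In the 9 sham libraries without sham 46 the median was -0.22. Cabp7 with Syt12 still had 0.91 there, but the remaining pairs of Cabp7, Syt12, Cntn3 and Unc5c lay between -0.35 and 0.23. In the PX libraries without PX 44 the pairs of these 4 genes lay between 0.84 and 0.94.

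**Figure D3:**
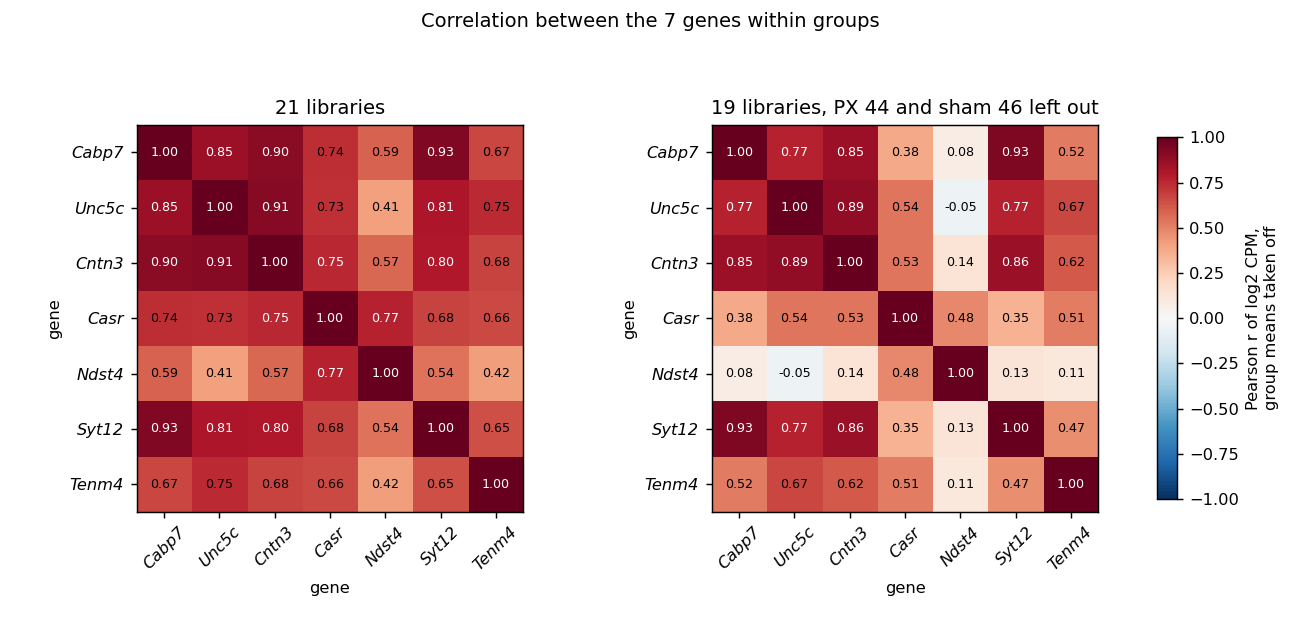
Pearson r between the 7 genes (rows and columns) after the group means of log2 CPM were taken off, over 21 libraries and over 19 libraries without PX 44 and sham 46. Cabp7, Unc5c, Cntn3 and Syt12 stay at 0.77 or above on the right, and the Ndst4 row pales to values between -0.05 and 0.14 except for 0.48 with Casr.

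A similar divide appeared against marker scores of islet cell types, again within groups. Casr and Ndst4 went with the alpha and delta cell scores: Casr had r = 0.64 (Spearman rho = 0.68) with alpha and 0.75 (0.77) with delta, and Ndst4 had 0.67 (0.67) and 0.73 (0.75). Without PX 44 and sham 46 these were 0.72 and 0.68 for Casr and 0.73 and 0.66 for Ndst4, over 19 libraries. Cabp7 and Syt12 went with the beta cell score, with r = 0.62 (rho = 0.65) and 0.68 (0.66), and 0.63 and 0.69 without both libraries. Their r with alpha was 0.18 and 0.10, and with delta 0.42 for each, which was 0.05 and 0.002 without both libraries. Cntn3 had 0.55 (0.52) and Unc5c 0.50 (0.31) with beta, and Tenm4 had at most 0.31 with any of the 3 scores. With the general endocrine score, r was 0.63 for Cntn3, 0.57 for Casr, 0.54 for Ndst4 and 0.51 for Unc5c. It was 0.37 for Syt12 and 0.36 for Cabp7 and for Tenm4. Without PX 44 and sham 46 these ran from 0.57 for Cntn3 to 0.20 for Cabp7. The alpha and delta scores, Casr and Ndst4 also differed between sham 21 to 24, 73 and 74 and sham 46 to 50. These sets were made by animal number and are not named in the labels. Ndst4 had medians of 26.2 CPM in the first set and 14.3 CPM in the second, and Casr 48.7 and 34.95 CPM. The alpha score ran from 6.23 to 7.30 in the first set and from 6.01 to 6.34 in the second. The correlations with the cell type scores are descriptions with no test, and a part of the animal sets in them was not tested.

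The genes outside the 7 that were most like each of them, by Pearson r within groups over 21 libraries among genes of at least 10 CPM, were Nell1 (0.97) and Galnt13 (0.93) for Cabp7, Tcf20 (0.96) and Cplx2 (0.95) for Unc5c, and Dstyk (0.92) and Amigo1 (0.91) for Syt12. Cabp7 and Syt12 were closer to each other (0.93) than Syt12 was to any gene outside the 7. For Cntn3 they were 2 entries named only by clone, AC125757.1 and AABR07018504.1 (both 0.96). They were Rgs22 and Gfpt2 (both 0.87) for Casr, Ocrl (0.93) and Dock11 (0.90) for Ndst4, and Dnah2 and Ppp1r21 (both 0.88) for Tenm4. The mean of the 7 standardised genes was most like Olfm4 (0.96), Tcf20 (0.94), Tmprss3 (0.92), Cplx2 (0.92) and Mboat2 (0.92). Of these, Nell1 is a secreted thrombospondin-like glycoprotein, Cplx2 a complexin that clamps vesicle release, and Amigo1 a neuronal adhesion protein.

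The relation to BG was examined within PX, where the contrast that chose the genes plays no part. BG ran from 101 to 174 with a median of 114 in PX animals and from 82 to 104 with a median of 96.5 in sham animals. All 7 slopes on BG were negative in PX: per 10 units of BG the log2 slope was -0.38 ± 0.09 for Unc5c, -0.37 ± 0.09 for Cntn3, -0.27 ± 0.08 for Cabp7, -0.24 ± 0.06 for Syt12, -0.22 ± 0.06 for Casr, -0.14 ± 0.08 for Tenm4 and -0.11 ± 0.07 for Ndst4 (SE, 11 libraries). No slope passed the test over 13136 genes. The adjusted p was 0.335 for Unc5c, Cntn3, Casr and Syt12, 0.344 for Cabp7, 0.475 for Tenm4 and 0.512 for Ndst4 by edgeR's quasi-likelihood test, which called 0% of all genes (0 of 13136, with 1653 at an unadjusted p under 0.05). DESeq2's Wald test called 25 genes (0.19%), among them Unc5c (adjusted p = 0.0125) and Cntn3 (adjusted p = 0.0383).

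All 7 slopes lay closer to 0 without the ends of the BG range. PX 65, with the highest BG of 174, had the lowest level of Unc5c, Cntn3, Casr, Cabp7 and Syt12, and PX 44, with the lowest BG of 101, was at or near the top of every gene. Without those 2 libraries the slope was -0.24 ± 0.14 for Unc5c, -0.17 ± 0.11 for Cntn3, -0.17 ± 0.10 for Syt12, -0.14 ± 0.11 for Cabp7, -0.09 ± 0.07 for Casr, -0.06 ± 0.12 for Tenm4 and 0.01 ± 0.08 for Ndst4. PX 65 also had the highest acinar score, 14.1, and the part of that in the BG slopes cannot be told apart from BG in 1 animal. PX 37 and PX 62 had the same BG of 110, and Unc5c stood at 48.3 CPM in PX 37 and at 10.7 CPM in PX 62.

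**Figure D4:**
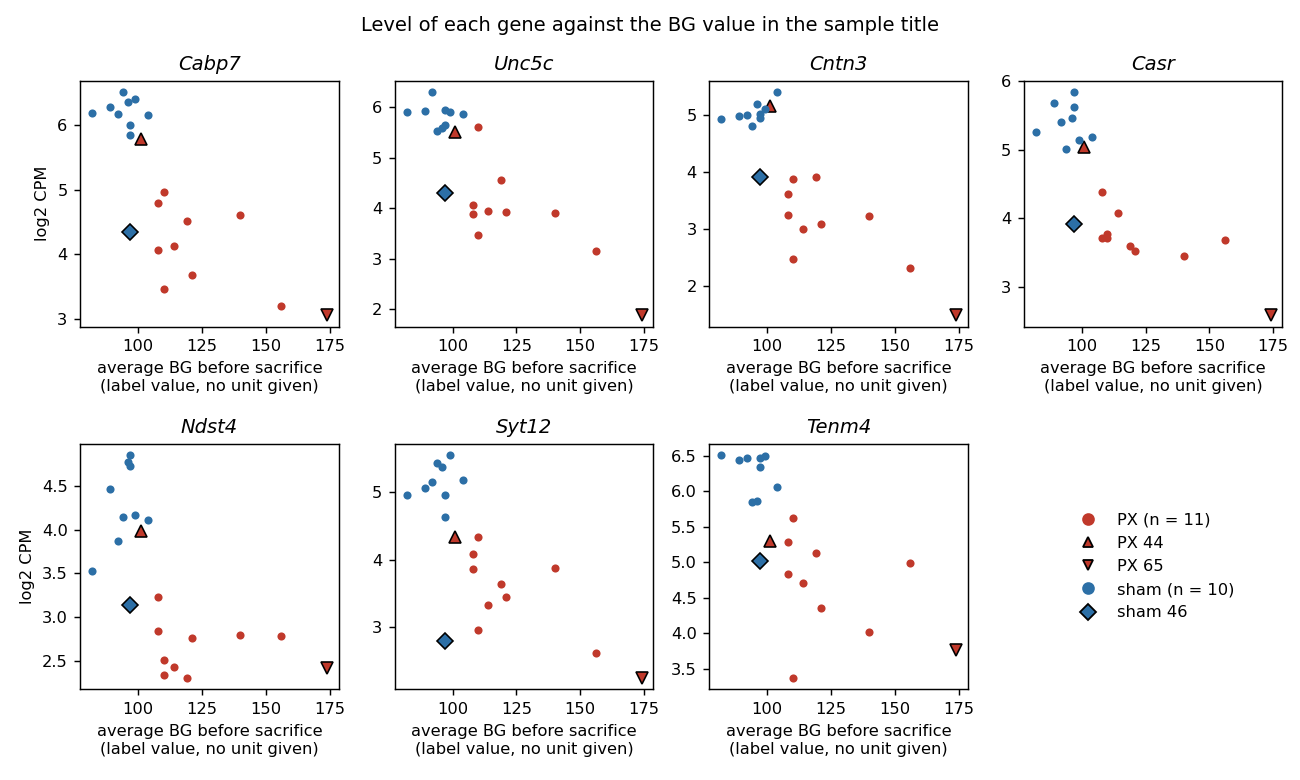
Level of each of the 7 genes, as log2 CPM, against the average BG before sacrifice given in the labels (no unit given), for 11 PX and 10 sham libraries. PX 65 at BG 174 is the lowest point for 5 genes, and among PX libraries of BG 108 to 121 the levels spread widely.

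Acinar content was examined next, as the slope on the acinar score with the group as a term. None of the 7 genes was called, against 0.906% of all genes called downward (119 of 13136). The slopes were all negative, between -0.04 ± 0.08 log2 per unit for Syt12 and -0.18 ± 0.09 for Cntn3, and the lowest adjusted p was that of Ndst4 (-0.17 ± 0.06, adjusted p = 0.0956). In the 11 PX libraries alone they lay between -0.18 ± 0.12 for Ndst4 and -0.56 ± 0.19 for Cntn3. In the 10 sham libraries alone they lay between -0.16 ± 0.06 for Ndst4 and 0.015 ± 0.09 for Syt12. None of the 7 was called in either group, against 0.221% of all genes downward in PX and 0.0305% in sham. A difference of the acinar slope between PX and sham was called for none of the 7 (0.00761% of all genes, 1 gene); the lowest adjusted p was 0.546 for Cntn3. Beside the acinar score, the log2 difference between PX and sham stayed between -1.58 for Cabp7 and -1.10 for Ndst4. The acinar score also split each group by animal number, without overlap. PX 36 to 44 reached at most 11.19, whereas PX 57 to 70 began at 11.43. Sham 21 to 24, 73 and 74 reached at most 9.60, whereas sham 46 to 50 began at 10.64. The acinar slopes therefore cannot fully tell acinar content from animal set, and the part of the set in them was not tested.

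Macrophage content was examined in the same way. On the macrophage score with the group as a term, 6 of the 7 genes had a falling slope at an adjusted p under 0.05 by edgeR's quasi-likelihood test over all genes, against 9.68% of all genes (1272 of 13136). Per unit of the score, which is 1 doubling of the average marker, the log2 slope was -0.80 ± 0.14 for Cntn3 (adjusted p = 2.61e-04), -0.77 ± 0.14 for Cabp7 (adjusted p = 2.91e-04), -0.76 ± 0.17 for Unc5c (adjusted p = 0.00281), -0.68 ± 0.15 for Syt12 (adjusted p = 0.00212), -0.56 ± 0.14 for Tenm4 (adjusted p = 0.00574) and -0.46 ± 0.14 for Ndst4 (adjusted p = 0.0239). Casr had -0.36 ± 0.14 (adjusted p = 0.0792). With the acinar score as a further covariate 6 of the 7 were called as well, against 8.2% of all genes.

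The strength of that relation depended on PX 44 and sham 46. Without both, Cabp7 (-0.49), Cntn3 (-0.49) and Syt12 (-0.51) were still called, against 1.61% of all genes downward, while Unc5c (-0.56, adjusted p = 0.0931), Tenm4 (-0.48, adjusted p = 0.0795) and Ndst4 (-0.13, adjusted p = 0.644) were not, and Casr was at -0.01. Without sham 46 alone the slope of Ndst4 was -0.36 ± 0.14 (adjusted p = 0.0867), and without PX 44 alone it was -0.27 (adjusted p = 0.280). In the 11 PX libraries alone 3 of the 7 genes were called, against 1.17% of all genes downward: Cabp7 (-0.68 ± 0.16, adjusted p = 0.0158), Cntn3 (-0.80 ± 0.18, adjusted p = 0.0150) and Syt12 (-0.54 ± 0.14, adjusted p = 0.0252). Without PX 44 none of the 7 was called within PX, against 0.129% of all genes downward, and the lowest adjusted p was 0.0842 for Syt12 (-0.53 ± 0.16).

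In the 10 sham libraries alone 5 of the 7 genes were called downward, against 4.31% of all genes, with slopes between -1.65 ± 0.36 for Syt12 and -1.03 ± 0.30 for Casr. Without sham 46, whose score of 2.80 stands against 1.37 to 1.94 in the other 9, no slope was called by edgeR's quasi-likelihood test (0% of all genes, with 1575 at an unadjusted p under 0.05) and the signs of the 7 were mixed, between -0.78 ± 0.51 for Tenm4 and 0.60 ± 0.37 for Cntn3. A difference of the slope between PX and sham was called for none of the 7 (0.0837% of all genes, 11 genes); the lowest adjusted p was 0.193, for Syt12.

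**Figure D5:**
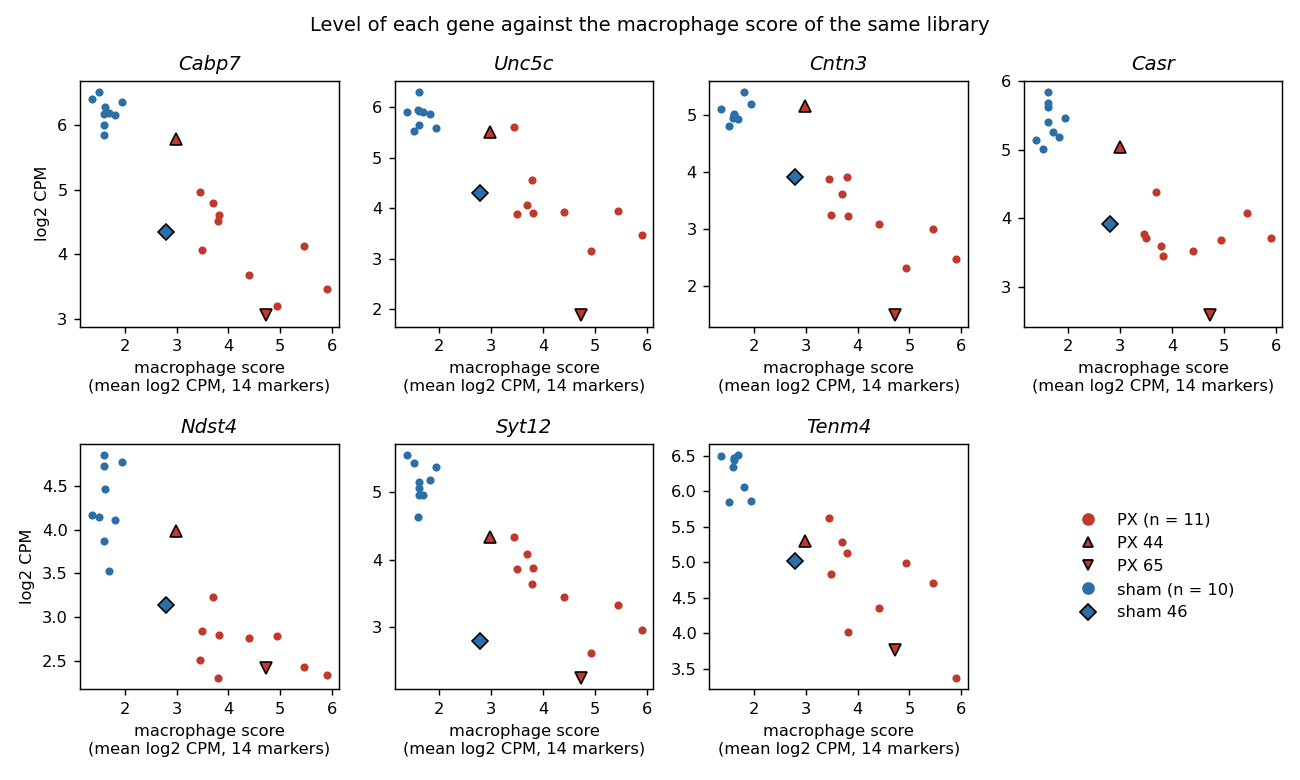
Level of each of the 7 genes, as log2 CPM, against the macrophage score of the same library (mean log2 CPM of 14 markers), for 11 PX and 10 sham libraries. PX libraries run from 2.99 to 5.90 and 9 sham libraries from 1.37 to 1.94, and sham 46 at 2.80 lies next to PX 44.

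The macrophage score separated PX from sham without overlap (4.24 ± 0.92 in PX and 1.76 ± 0.40 in sham, adjusted p = 2.2e-04), so the group and the score share most of their spread. With the score as a covariate the log2 difference between PX and sham was 0.37 ± 0.38 for Cntn3, 0.31 ± 0.46 for Unc5c, 0.24 ± 0.41 for Syt12, 0.13 ± 0.38 for Cabp7, -0.05 ± 0.38 for Tenm4, -0.33 ± 0.40 for Ndst4 and -0.54 ± 0.42 for Casr (SE), given as a description. In that fit 11 of 13136 genes were called. The mesenchymal score, from 10 markers that all rose, was 6.01 ± 0.62 in PX and 4.25 ± 0.47 in sham (adjusted p = 2.2e-04), and in place of the macrophage score its falling slope was called for 4 of the 7 genes, against 10.8% of all genes. Within groups Cabp7 had r = -0.86 (rho = -0.88) with the mesenchymal score and -0.77 (-0.75) with the macrophage score, and Syt12 had r = -0.80 and -0.73. For Unc5c, Cntn3, Casr, Ndst4 and Tenm4 the macrophage r was the stronger, by most in Tenm4 (-0.69 against -0.48). Without PX 44 and sham 46 the mesenchymal r ran from -0.73 for Cabp7 to 0.18 for Casr. The macrophage r then ran from -0.67 for Syt12 to -0.06 for Casr. Whether the macrophages, the mesenchymal cells or another difference of these libraries had a part in the levels of the 7 genes was not tested.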

How the data were processed

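Groups, animal numbers and BG of the 11 PX and 10 sham libraries were read from titles and characteristics. Per the file headers, the deposited counts are integers for each gene symbol, written by featureCounts, beside a gene length. The submitters' processing notes list FastQC, Subread, featureCounts and limma without versions, with build and strand setting not given in the sources used here, so antisense overlaps may share reads. The authors' deposited table gives a log2 fold change, a linear fold (ratio), a mean log2 expression and an adjusted p-value per gene.

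From the counts, edgeR 4.0.16 (R 4.3.3) scaled libraries by TMM, filtered genes with filterByExpr (minimum count 10, total 15) and fitted robust quasi-likelihood models over 13136 genes. Two-sided p-values were adjusted by Benjamini-Hochberg and called under 0.05. SE came from the fold change and F, and log2 CPM used a prior count of 2. Marker scores, means of log2 CPM, were compared by permutation (scipy 1.17.1). Scripts were tested on simulated data. Alternatives were other scalings and filters, DESeq2 1.42.0, limma 3.58.1 voom, covariates, subsets of libraries and fits without single libraries. Leaving out PX 44 and sham 46 together, and the mesenchymal score, were chosen after seeing the data.

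The 7 genes, families and marker lists were chosen with earlier results of these data known. Named beside the 7 are the next 3 of the ranking, at most 3 called risers and 3 called falls of largest size per family, the most alike genes, and markers picked after their values were seen. No 2 libraries agreed within sampling noise (lowest chi-square per degree of freedom 4.37). Each library is taken as 1 animal from its number. Some single markers are not reported here.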

Additional observations from a re-analysis of the deposited data

Results flagged for a closer look

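Sham 46 stood apart from the other 9 sham libraries in 6 of the 7 genes and in the macrophage score, by the gap to its neighbour set against the group's range (Dixon's 95% limit for 10 samples). It was the lowest sham library in log2 CPM for Cabp7 at 4.349 (the next at 5.85), Unc5c at 4.31 (5.524), Cntn3 at 3.92 (4.815), Casr at 3.91 (5.01), Syt12 at 2.795 (4.626) and Tenm4 at 5.018 (5.852). Its macrophage score was the highest of the sham libraries at 2.796, against 1.942 for the next. Ndst4 was also lowest in sham 46 but within the limit. In all, 7 of 18 groups of values passed the limit, where chance alone passes about 1 in 20, and these 7 share 1 library, so they are not separate observations. The PX group, with 11 libraries, was not tested in this way.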

How the results depend on the processing

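The log2 difference of each of the 7 genes between PX and sham kept its sign in all fits that left out 1 library and under every other scaling, filter and tool run. With the macrophage score as a covariate it was 0.13 for Cabp7, 0.31 for Unc5c, 0.37 for Cntn3 and 0.24 for Syt12, and with the acinar and macrophage scores 0.14, 0.35, 0.42 and 0.25. The count of genes called between PX and sham, 4088, was 2232 with the acinar score as a covariate, 11 with the macrophage score, 22 with both, 2550 with the 8 PX animals of BG 121 or less, 1375 without PX 57 to 70, 1583 without sham 21 to 24, 73 and 74, and 3292 to 4550 with each library left out. For the BG slope in PX, 0 genes were called, 6 with no filter, 25 by DESeq2, 4 with all 21 libraries and 0 to 1 with each library left out (1 without PX 41). In sham libraries alone the BG slope was 0.13 for Cntn3, 0.27 for Ndst4 and 0.033 for Syt12. The acinar slope called 778 genes, 370 with log2 of the percent of counts, 435 in PX only, 212 in sham only and 304 to 977 with each library left out (304 without PX 65). In sham only the acinar slope was 0.014 for Cabp7 and 0.015 for Syt12, and that of Syt12 ran from -0.070 to 0.0045 with single libraries left out (0.0045 without PX 65). Ndst4 was called on the acinar score without sham 22 (adjusted p = 0.0394), and Casr on the macrophage score without PX 58 (adjusted p = 0.0402). The macrophage slope called 2713 genes, 1583 with log2 of the percent, 962 in PX only, 1421 in sham only, 1067 without PX 44 and sham 46, and 1483 to 2896 with each library left out (1483 without PX 44). Of 11 marker lists 10 differed between PX and sham, and 3 with the percent of counts (macrophage, mesenchymal and delta). The cause of these moves was not tested. No paired analysis was possible because no animal number is shared between PX and sham. The lowest count of any of the 7 genes was 12, for Cntn3 in 1 PX library. Each stretch of neighbouring animal numbers holds 1 group, so stretch and group cannot be told apart.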
